A study of Homo sapiens with 18 samples.

Results

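The mRNAs of 43 genes of G2 phase and mitosis were followed in hiF-T cells after CRISPR knockdown of 1 of 3 genes. The members are a fixed list of gene symbols, chosen, like the other gene lists below, with earlier results of these data known. Each member was matched to 1 Ensembl gene. The estimated counts of a gene's transcripts were summed. All 43 of the 35579 genes with a matched transcript passed the filter on low counts, which kept 13527 genes. By role, 10 are cyclins, CDK1 and the mitotic kinases and phosphatases, 10 belong to the kinetochore and its checkpoint, and 4 to the anaphase-promoting complex and separase. A further 7 act in the spindle, 9 at the midzone and in cytokinesis, and 3 in chromosome structure, proliferation and transcription (TOP2A, MKI67, FOXM1).

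The hiF-T line derives from BJ human skin fibroblasts and can be induced to express the telomerase subunit hTERT, and its genotype is given as wild type. CDKN1A knockdown was measured in 4 libraries (guides 1 and 2), KDM1A knockdown in 4 (guides 2 and 3), SPP1 knockdown in 6 (guides 1, 2 and 3) and a control guide in 4 (guides 1 and 2), with biological replicates 1 and 2 of each guide. CDKN1A encodes p21, an inhibitor of cyclin-dependent kinases, KDM1A a histone demethylase, and SPP1 the secreted protein osteopontin. The sources used here do not say how the guides lower an mRNA, whether hTERT was induced, or whether replicates 1 and 2 were separate cultures. The p-values therefore measure the spread between these libraries, part of which may be technical.

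The total estimated count per library was 11907197 to 17016094. CDKN1A mRNA was at 58.2% of control in CDKN1A knockdown (adjusted p = 0.00394, edgeR's quasi-likelihood F test) and KDM1A mRNA at 52.9% in KDM1A knockdown (adjusted p = 7.27e-06). SPP1 mRNA was at 61.4% in SPP1 knockdown and did not pass (adjusted p = 0.0695). It was at 24.2 and 26.9 CPM (counts scaled by TMM library size) with SPP1 guide 1, 47.4 and 55.2 CPM with guide 2, and 63.0 and 21.7 CPM with guide 3, against 66.8, 55.2, 63.7 and 72.7 CPM in control. The library labelled SPP1 guide 3 replicate 1 was thus inside the control range and guide 2 replicate 2 at its lower end, so their SPP1 mRNA does not show the knockdown in their labels. Guide 3 replicate 2 had the lowest SPP1 mRNA of the 18 libraries. The libraries of guide 3 stood apart from each other: 10 of the 43 genes differed by over 20% between them, against 0 to 3 in the other guides. For SPP1 knockdown against control and against CDKN1A knockdown, the counts of members called are given with and without each of them. Of 10 fibroblast markers, COL1A1, COL1A2, VIM and FN1 were each at 872 TPM or more (transcripts scaled by length and library total) in every library. COL3A1, LUM, DCN, S100A4 and PDGFRB were far lower, between 1.03 and 42.0 TPM, and THY1 was at 1.19 TPM or less and was listed at 0 in 4 libraries. Of the keratinocyte markers, KRT1 was listed at 0 in all 18 libraries and KRT5 in 17, whereas KRT10 reached 194 TPM. VWF, CDH5 and PTPRC stayed under 1 TPM, melanocyte markers summed to at most 3.36 TPM, and CD68 was at 57.4 to 91.3 TPM.

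Entry into mitosis depends on CDK1 bound to cyclin A or cyclin B, which WEE1 and PKMYT1 hold inactive and the CDC25 phosphatases release. The genes of this programme are transcribed late in the cell cycle. In resting cells the DREAM complex holds them silent, and in G2 the MuvB core, B-MYB and FOXM1 switch them on, acting through a promoter element called the cell cycle genes homology region (CHR), often beside CCAAT boxes. p21 favours assembly of DREAM by keeping the RB-family proteins RBL1 and RBL2 unphosphorylated. In bulk RNA, a larger share of cells in G2 or mitosis and more of these mRNAs in each such cell cannot be told apart.

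In control cells these mRNAs spanned a wide range of levels. PTTG1, the securin that restrains separase, was at 259 ± 12.6 TPM (SD, n = 4), and the checkpoint protein BUB3 at 270 ± 11.8 TPM. The B-type cyclin CCNB1 followed at 209 ± 7.63 TPM, the ubiquitin-conjugating enzyme UBE2C at 204 ± 25.2, the APC/C activator CDC20 at 201 ± 5.35, and ANLN, an actin-binding scaffold of the cleavage furrow, at 200 ± 16.7 TPM. The last 4 lay within each other's spread. The lowest were the kinetochore motor CENPE (22.6 ± 2.34 TPM), separase itself, ESPL1 (19.0 ± 1.07 TPM), and the phosphatase CDC25C (10.7 ± 1.93 TPM). In the control libraries PTTG1 lay at percentile 96 of the genes kept and CDC25C at percentile 39. Over all 18 libraries the counts behind a single value were 138 to 228 for CDC25C and 5136 to 9228 for ANLN. BUB3, which is also needed outside mitosis, varied little, at 246 to 289 TPM over the 18 libraries.

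**Figure D1:**
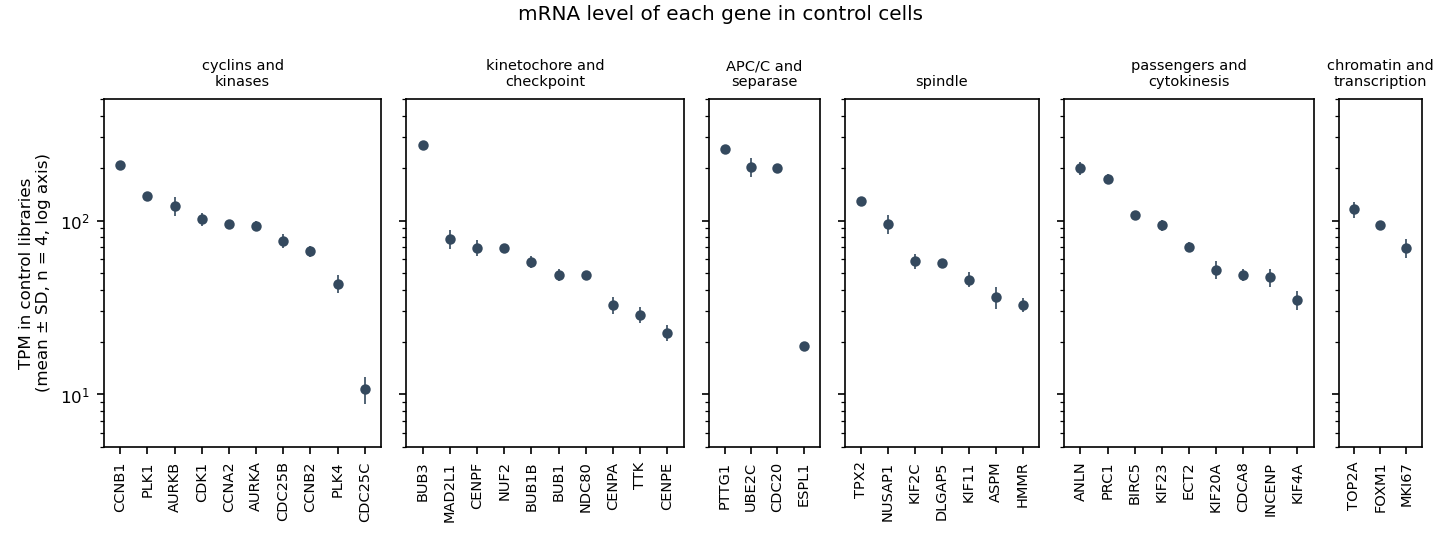
TPM of each of the 43 genes in the 4 control libraries (points, mean; bars, SD; log axis), grouped by role. BUB3 (270 TPM) and PTTG1 (259 TPM) are at the top and CDC25C (10.7 TPM) at the bottom.

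Most of these genes with a promoter to search held the CHR. It is an element known from genes of this programme, so its high share is not independent of the list. RefSeq windows of 300 bases (250 before a start and 50 after it, GRCh38.p14) were at hand for 36 of the 43 genes, 48 windows in all. Not matched were TTK, BUB3, TPX2, AURKA, UBE2C, BIRC5 and FOXM1. The CHR was searched as TTTGAA or TTCGAA and the CCAAT box as CCAAT, both on either strand, and the 2 motifs can overlap. A CHR match was present in 29 of the 36 genes (80.6%), against 15.8% of 10105 genes with 10 counts in at least 4 libraries and 19.5% of all 27305 genes in the table. A CCAAT match was present in 30 of 36 (83.3%), against 43.4% and 39.7% of the same sets. Both were present in 24 of 36 genes (66.7%), against 6.7% of the 10105 genes. A match is a string of letters and not a measured binding site.

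The members called in a knockdown against control, described further on, are shown here with 30 bases around the CHR match that is nearest before a start, or after it where none lies before. The bases run 5′ to 3′ on the gene's strand, which is + for all 7, and capitals mark the CHR letters.
CCNB2, chr15:59105105-59105134, 29 bases before the start: agcgacgcggtaTTTGAAtcctggaacaag
CDK1, chr10:60778453-60778482, 13 bases before the start: tagcgcggtgagTTTGAAactgctcgcact
CDC25B, chr20:3796260-3796289, 38 bases before the start: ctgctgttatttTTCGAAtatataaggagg
ESPL1, chr12:53268256-53268285, 31 bases before the start: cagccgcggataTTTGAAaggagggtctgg
ECT2, chr3:172750599-172750628, 115 bases before the start: tcgttgggcttaTTTGAAacacacgcacaa
PLK4, chr4:127880913-127880942, 39 bases after the start: ggcaagcggcgggagattTTCAAAatggga
CENPF, chr1:214603215-214603244, 41 bases after the start: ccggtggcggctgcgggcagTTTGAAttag

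CCNB2, CDK1 and ESPL1 hold the letters TTTGAA within 31 bases before a start, CDC25B holds the variant TTCGAA, and the matches of PLK4 and CENPF lie after the start. FOXM1, the other called member, had no window. For ESPL1 and CDK1, called lower in SPP1 knockdown, the 170 bases before a start are given, with CHR and CCAAT letters in capitals, to show how the motifs lie together.
ESPL1, chr12:53268129-53268298, + strand: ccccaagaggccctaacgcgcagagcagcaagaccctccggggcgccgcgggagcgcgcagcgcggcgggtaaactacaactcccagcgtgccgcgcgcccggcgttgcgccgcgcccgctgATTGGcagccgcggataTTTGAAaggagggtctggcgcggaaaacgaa
CDK1, chr10:60778161-60778330, + strand: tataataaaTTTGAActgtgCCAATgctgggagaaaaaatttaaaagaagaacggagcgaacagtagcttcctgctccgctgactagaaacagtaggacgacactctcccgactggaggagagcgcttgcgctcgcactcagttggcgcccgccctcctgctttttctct
In ESPL1 the inverted CCAAT box (ATTGG) stands 48 bases before the start and the CHR at 31. In CDK1, upstream of its first start, a CHR stands at 161 and a CCAAT box at 150, and the CHR of the 30-base site above belongs to a second start downstream. The window of that second start, not printed in full, holds 3 CHR and 2 CCAAT matches.

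In CDKN1A knockdown a small set of these mRNAs was called higher, and the calls were lost when both libraries of a guide were summed. Of 43, 6 rose and 0 fell at an adjusted p under 0.05, a share of 14%, where 1.09% of all 13527 genes rose and 0.917% fell. They were CENPF, FOXM1, PLK4, CDC25B, ECT2 and CCNB2, with increases of a log2 fold change of 0.17 to 0.30. The median log2 fold change of the 43 was 0.12, with 39 positive, and the median of all genes was 0. Unadjusted p was under 0.05 for 16 members, and DESeq2 called 10 up and 0 down. Of 9 fibroblast markers tested in the same comparison, 0 were called by edgeR (3 at an unadjusted p under 0.05), with 7 negative and a median of −0.23. By guide, 5 were lower and 1 higher with CDKN1A guide 1, and 3 lower and 0 higher with guide 2. The 10 markers summed to 11800 to 12900 TPM in CDKN1A knockdown, against 12200 to 13700 TPM in control, and their part in the results was not tested.

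CENPF, a large kinetochore protein made in G2, had 366 and 368 CPM with CDKN1A guide 1 and 359 and 361 with guide 2, against 292 and 325 with control guide 1 and 295 and 285 with control guide 2. Every CDKN1A library was above every control library (log2 fold change 0.28 ± 0.06 SE, adjusted p = 0.0162). The gene lies at chr1:214603195-214664588 (+ strand; gene positions are GENCODE 29 on GRCh38). FOXM1, the transcription factor that drives many of the other genes, had 195, 186, 186 and 188 CPM in CDKN1A knockdown, against 155, 162, 161 and 163 CPM in control. These groups did not overlap either (0.24 ± 0.05, adjusted p = 0.0202; chr12:2877155 is its upstream end on the − strand). On the opposite strand, ITFG2 shares 15.9% of FOXM1's exonic bases, and the library kit named in the labels does not mark the strand.

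PLK4, the kinase that starts centriole duplication (chr4:127880861-127899195), had 56.6 and 58.7 CPM with CDKN1A guide 1 and 58.2 and 59.5 with guide 2, against 45.7, 49.2, 44.9 and 49.3 CPM in the control libraries. It had the highest log2 fold change of the 6 (0.30 ± 0.06, adjusted p = 0.0227), again without overlap. CCNB2, a B-type cyclin (chr15:59105078-59125045), had 67.1, 66.7, 66.4 and 61.4 CPM in CDKN1A knockdown, against 60.1, 48.3, 50.7 and 55.3 CPM in control. The lowest CDKN1A library exceeded the highest control library by little (0.29 ± 0.07, adjusted p = 0.0465). CDC25B, a phosphatase that activates CDK1, had 141, 136, 146 and 137 CPM in CDKN1A knockdown, against 124, 131, 115 and 114 CPM in control (0.21 ± 0.05, adjusted p = 0.0406). ECT2, the exchange factor that activates RhoA at the cleavage furrow, had 184, 183, 171 and 175 CPM in CDKN1A knockdown, against 158, 158, 156 and 161 CPM in control (0.17 ± 0.04, adjusted p = 0.0446). Neither of these overlapped between the groups.

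Among the kinases and cyclins the values ran both ways. CDC25B, PLK4 and CCNB2 rose, but the fold changes of CDK1 (−0.10 ± 0.08), PLK1 (−0.01 ± 0.07), AURKA (−0.03 ± 0.07) and AURKB (−0.23 ± 0.11) were negative, and none of these passed. AURKB, the kinase of the chromosomal passenger complex, had 50.9 to 54.0 CPM in CDKN1A knockdown, against 54.4 to 69.7 CPM in control. It was the only member whose every CDKN1A library lay below every control library, and it is named after its values were seen. In the other role groups no fold change was below 0 (CDCA8, a passenger complex subunit, was at 0.00). The highest member to miss the threshold was PTTG1, at 121, 115, 109 and 116 CPM in CDKN1A knockdown, against 96.0, 80.1, 91.0 and 96.0 CPM in control (0.35 ± 0.09, adjusted p = 0.0564). Its near-identical copies PTTG2 and PTTG3P had at most 2.1 counts. ASPM, a spindle pole protein, had a value of 0.24 ± 0.06 (adjusted p = 0.0541), DLGAP5, a microtubule-binding protein, 0.25 ± 0.07 (adjusted p = 0.0569) and the midzone kinesin KIF20A 0.24 ± 0.08 (adjusted p = 0.121). In all, 14 members had every CDKN1A library above every control library, 32.6% of the list, where 6.46% of all genes did, and 1 had every CDKN1A library below, where 6.65% of all genes did.

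**Figure D2:**
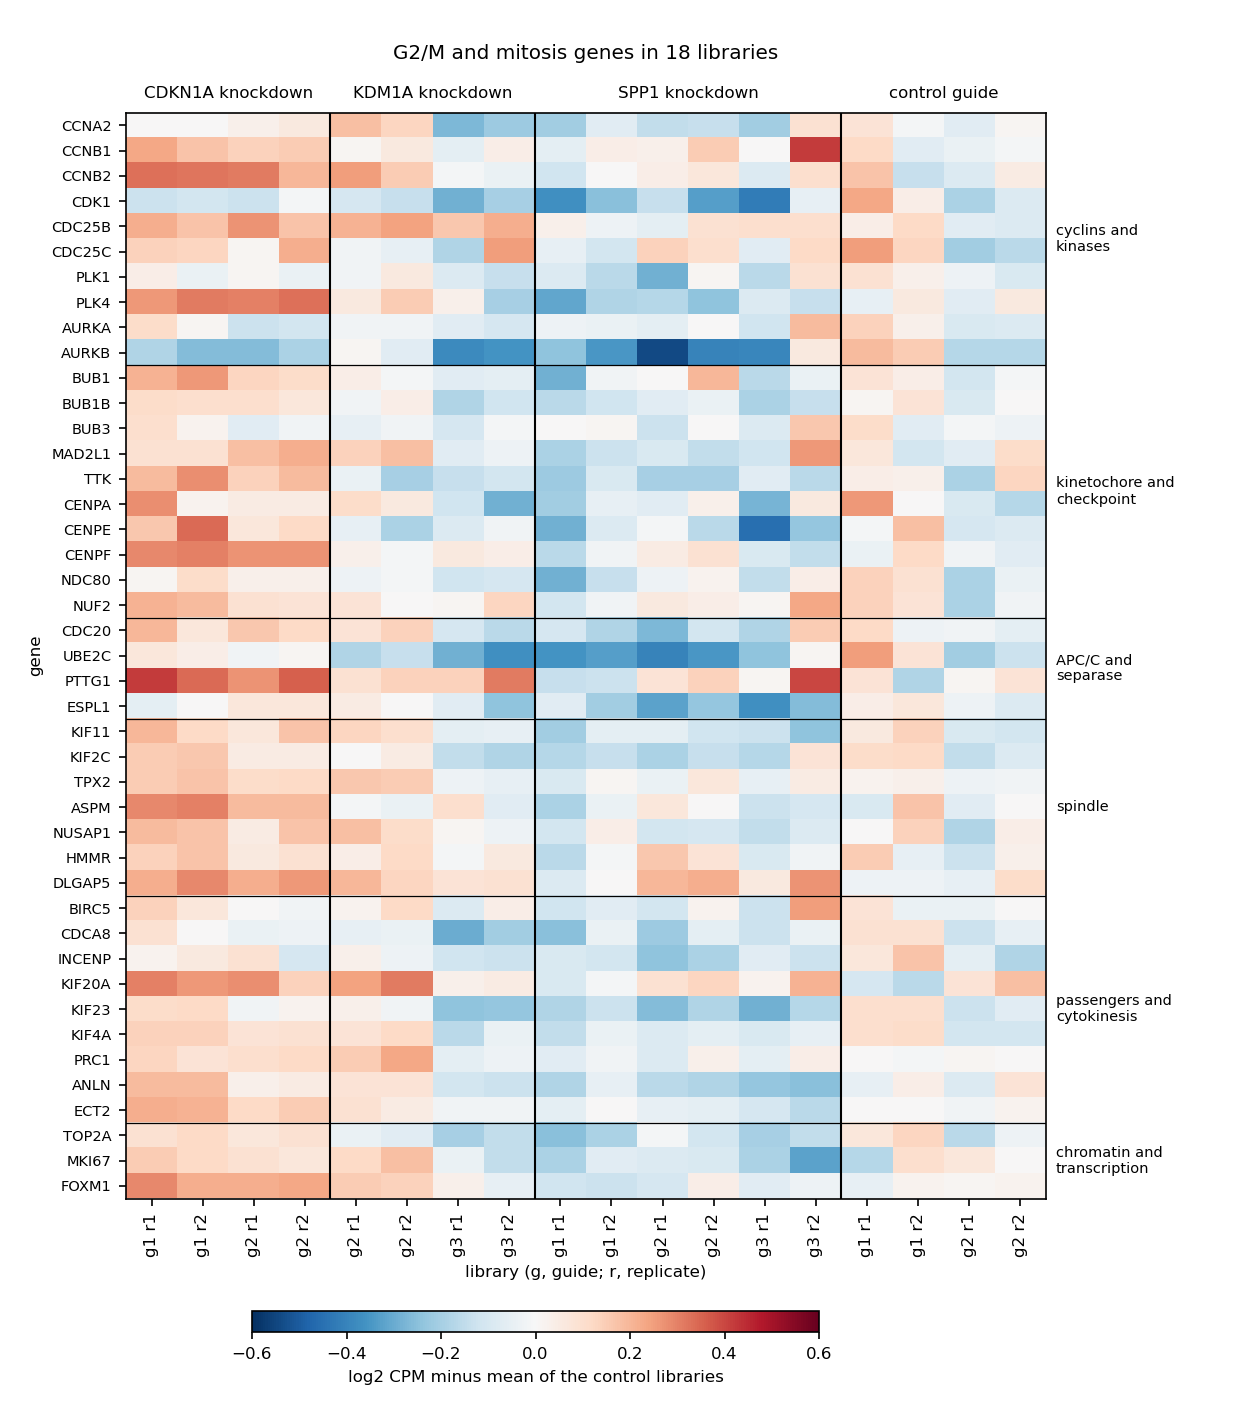
log2 CPM of each gene (rows, by role) in each of the 18 libraries (columns, by group, guide and replicate) minus the mean of the 4 control libraries. Red is above that mean and blue below it. CDKN1A columns are mostly red except for AURKB and CDK1, and 2 to 10 of the 43 genes are above the control mean in 4 of the SPP1 columns, 20 in guide 2 replicate 2 and 22 in guide 3 replicate 2.

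The 6 calls rested on few libraries and on the control guides. The count was 2 without CDKN1A guide 1 replicate 1, guide 1 replicate 2 or guide 2 replicate 1, 0 without CDKN1A guide 2 replicate 2, 1 without control guide 1 replicate 1, and 2 without control guide 2 replicate 1. It was 9 without SPP1 guide 3 replicate 2, which enters only the filter, the scaling and the estimate of spread. With both libraries of a guide summed, or with a transcript length offset, it was 0. CENPF was called in 6 of the 8 fits that left out 1 library of these groups, FOXM1 in 5, PLK4 in 3, CCNB2 and CDC25B in 1 each, and ECT2 in 0. All 6 kept a positive sign in the 20 alternatives.

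By guide, 11 members rose with CDKN1A guide 1 against the control libraries (2.35% of all genes rose and 2.34% fell) and 6 with guide 2 (2.90% rose and 3.32% fell), and none fell, in a fit with a coefficient per guide. Guide 1 left 46.3% and guide 2 left 70.6% of the control level of CDKN1A mRNA. CENPF, FOXM1, PLK4, CDC25B, DLGAP5 and KIF20A were called with either guide. ECT2, ASPM, PTTG1, CCNB2 and the furrow scaffold ANLN (0.19 ± 0.05, adjusted p = 0.0418) were called with guide 1. Guide 2 against guide 1 gave 0 calls among the members (0.732% of all genes were higher and 0.547% lower, edgeR), with 3 at an unadjusted p under 0.05 and a median of −0.05. With 1 library of a guide left, which is then assumed to vary like the other guides, the counts were 0 and 1 for guide 1 and 0 and 0 for guide 2. Without control guide 2 replicate 1 they were 4 and 3.

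In KDM1A knockdown 1 of the 43 members was called. CDC25B had 140 and 143 CPM with KDM1A guide 2 and 136 and 141 with guide 3, against 124, 131, 115 and 114 CPM in control (0.21 ± 0.05, adjusted p = 0.0136). Every KDM1A library was above every control library for CDC25B and PTTG1 (8.19% of all genes were so) and below for no member (7.49%), and the call of CDC25B was made in all 8 fits that left out 1 library of these groups. In this comparison 5.33% of all genes rose and 3.72% fell. The median of the 43 was −0.01, with 20 positive and 23 negative, and 4 had an unadjusted p under 0.05. DESeq2 called 1 up and 0 down. Without control guide 2 replicate 1, or without SPP1 guide 3 replicate 2, the count was 2, and with a length offset or summed guides it was 0. Of 9 fibroblast markers tested, 4 were higher in KDM1A knockdown (COL3A1, LUM, DCN and PDGFRB) and 0 lower. Summed over 10 markers they had 12000 to 12900 TPM in KDM1A knockdown, against 12200 to 13700 TPM in control, and the 5 keratinocyte markers 169 to 179 TPM, against 144 to 168 TPM in control. Their part in the results was not tested.

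In the other role groups the members with the largest log2 values did not pass. UBE2C, which supplies ubiquitin to the APC/C, was at 59.8 to 70.4 CPM in KDM1A knockdown, against 66.9 to 92.1 CPM in control (−0.25 ± 0.09, adjusted p = 0.0990). The checkpoint kinase TTK had −0.12 ± 0.06, the topoisomerase TOP2A −0.12 ± 0.06, DLGAP5 0.12 ± 0.07 and KIF20A 0.16 ± 0.08 on the log2 scale.

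The near-zero median of KDM1A knockdown covered guides that differed from each other. Guide 3 left 43.4% and guide 2 left 62.6% of the control level of KDM1A mRNA. Guide 3 against guide 2 had 5 members lower and 0 higher (4.04% of all genes were lower and 2.11% higher), with a median of −0.16 and 36 of 43 negative. Cyclin A2, CCNA2, had 134 and 138 CPM with guide 3, against 183 and 176 CPM with guide 2 (−0.40 ± 0.08, adjusted p = 0.00644). The other 4 were the midzone kinesin KIF23 (−0.24 ± 0.05, adjusted p = 0.0133), the microtubule bundler PRC1 (−0.23 ± 0.05, adjusted p = 0.0185), the spindle assembly factor TPX2 (−0.20 ± 0.05, adjusted p = 0.0412) and the chromokinesin KIF4A (−0.20 ± 0.06, adjusted p = 0.0461). With 1 library of a guide left out, 0 or 1 of the 5 was called: 0 without guide 2 replicate 1 or guide 3 replicate 1, and 1 without guide 2 replicate 2 or guide 3 replicate 2. A same-strand readthrough gene, AC068831.7, shares 57.6% of PRC1's exonic bases, so the division of reads between them is uncertain.

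Set against control, KDM1A guide 2 had 5 members higher (8.41% of all genes rose) and 0 lower (5.68% fell): KIF20A, CDC25B, PRC1, TPX2 and FOXM1. KDM1A guide 3 had 1 higher, CDC25B (6.34% of all genes rose), and 6 lower (5.16% fell): KIF23, UBE2C, AURKB, CDCA8, CCNA2 and TOP2A. For guide 2 the count was 3 without its replicate 1 or without control guide 2 replicate 1, and 0 without its replicate 2. For guide 3 it was 1 without its replicate 1, 0 without its replicate 2 and 3 without control guide 2 replicate 2. These guides share the control libraries, so the counts are not independent.

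In SPP1 knockdown 2 of the 43 members were called lower. ESPL1, separase, the protease that opens cohesin at anaphase (chr12:53268299-53293643), had 39.8 to 49.3 CPM in the 6 SPP1 libraries, with a median of 43.5, against 53.0, 54.2, 50.6 and 48.7 CPM in control (−0.24 ± 0.06, adjusted p = 0.0306). CDK1, the kinase that drives mitotic entry (chr10:60778331-60794852), had 79.1 to 102 CPM with a median of 86.4 in SPP1 knockdown, against 124, 108, 92.8 and 99.8 CPM in control (−0.26 ± 0.08, adjusted p = 0.0484). The groups overlapped for both genes. Among all genes 3.06% fell and 2.40% rose, so the 2 calls (4.65% of the 43) lay near the share of all genes. The median of the 43 was −0.09, with 36 negative, and 14 had an unadjusted p under 0.05. DESeq2 called 5 down and 0 up.

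Other members had lower values in SPP1 knockdown without passing. AURKB had 42.1 to 63.8 CPM with a median of 47.4, against 54.4 to 69.7 CPM in control (−0.31 ± 0.10, adjusted p = 0.0916). UBE2C had 58.6 to 77.8 CPM with a median of 61.0, against 66.9 to 92.1 CPM in control (−0.28 ± 0.08, adjusted p = 0.0540). For PLK4 and KIF23 every SPP1 library was below every control library, which held for 3.37% of all genes, and no member had every SPP1 library above, which held for 2.96%. PLK4 had 38.1 to 44.6 CPM in SPP1 knockdown, against 44.9 to 49.3 CPM in control (−0.19 ± 0.06, adjusted p = 0.0784). KIF23 had 134 to 150 CPM in SPP1 knockdown, against 150 to 175 CPM in control (−0.20 ± 0.06, adjusted p = 0.0562). MKI67, which encodes the Ki-67 antigen, had −0.16 ± 0.07, CENPE −0.20 ± 0.08 and the spindle motor KIF11 −0.14 ± 0.06, all not called. CDKN1A mRNA was at 80.3% of control in these cells (adjusted p = 0.116), and at 79.5% in KDM1A knockdown (adjusted p = 0.112), neither of them called by group. By guide it was called lower with SPP1 guide 1 (79.9% of control, adjusted p = 0.0410), SPP1 guide 3 (77.4%, adjusted p = 0.0117) and KDM1A guide 3 (75.6%, adjusted p = 0.00547), and not with SPP1 guide 2 (84.4%, adjusted p = 0.0796) or KDM1A guide 2 (84.0%, adjusted p = 0.0605). SPP1 mRNA was at 205% of control in KDM1A knockdown (adjusted p = 0.00793, edgeR) and at 181% in CDKN1A knockdown (adjusted p = 0.0645, not called). In CDKN1A knockdown it was at 294% of its level in SPP1 knockdown (adjusted p = 0.00017). The part of these SPP1 levels was not tested. The 10 fibroblast markers summed to 10500 to 13200 TPM in SPP1 knockdown, against 12200 to 13700 TPM in control, and their part was not tested.

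The SPP1 count moved with single libraries. It was 0 without control guide 1 replicate 1, control guide 1 replicate 2, SPP1 guide 2 replicate 2 or the library labelled SPP1 guide 3 replicate 1. It was 1 without SPP1 guide 1 replicate 1 or guide 2 replicate 1, 4 without guide 3 replicate 2 and 5 without control guide 2 replicate 1. By guide, SPP1 guide 1 had 2 members lower (2.59% of all genes fell), UBE2C and TOP2A, and 0 higher (1.98% rose). Guide 2 had 6 lower (5.23%), UBE2C, AURKB, KIF23, ESPL1, ANLN and the passenger scaffold INCENP, and 1 higher (5.41%), DLGAP5. Guide 3 had 8 lower (5.99%), KIF23, ESPL1, ANLN, CENPE, MKI67, TOP2A, KIF11 and the checkpoint kinase BUB1B, and 0 higher (4.56%). SPP1 mRNA was at 39.6% of control with guide 1 (adjusted p = 0.00827), and its reductions with guide 2 (79.6%, adjusted p = 0.443) and guide 3 (66.8%, adjusted p = 0.144) did not pass. The value of guide 3 averages a library at 63.0 CPM and another at 21.7 CPM. ESPL1 was called with guides 2 and 3 and CDK1 with no guide. A call with 1 guide and not with another is not a test of a difference between them. The part of the SPP1 level was not tested.

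The guide counts leaned on single libraries too. For SPP1 guide 1 the count was 0 without either of its libraries and 1 without control guide 2 replicate 2. For guide 2 it was 1 without its replicate 1 and 4 without control guide 1 replicate 2. For guide 3 it was 3 without control guide 1 replicate 2, 5 without control guide 2 replicate 2, and 14 (8 higher and 6 lower) without the library labelled replicate 1, which leaves guide 3 replicate 2 alone. In that library CCNB1 was at 220 CPM, against 158 to 182 CPM in the other 5 SPP1 libraries, PTTG1 at 120 CPM against 82.4 to 99.7, and MKI67 at 396 CPM against 435 to 473. SPP1 guide 1 against guides 2 and 3 gave 0 calls (2.13% of all genes were higher and 1.77% lower, edgeR), with 6 at an unadjusted p under 0.05, and 8 lower without the library labelled guide 3 replicate 1.

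**Figure D3:**
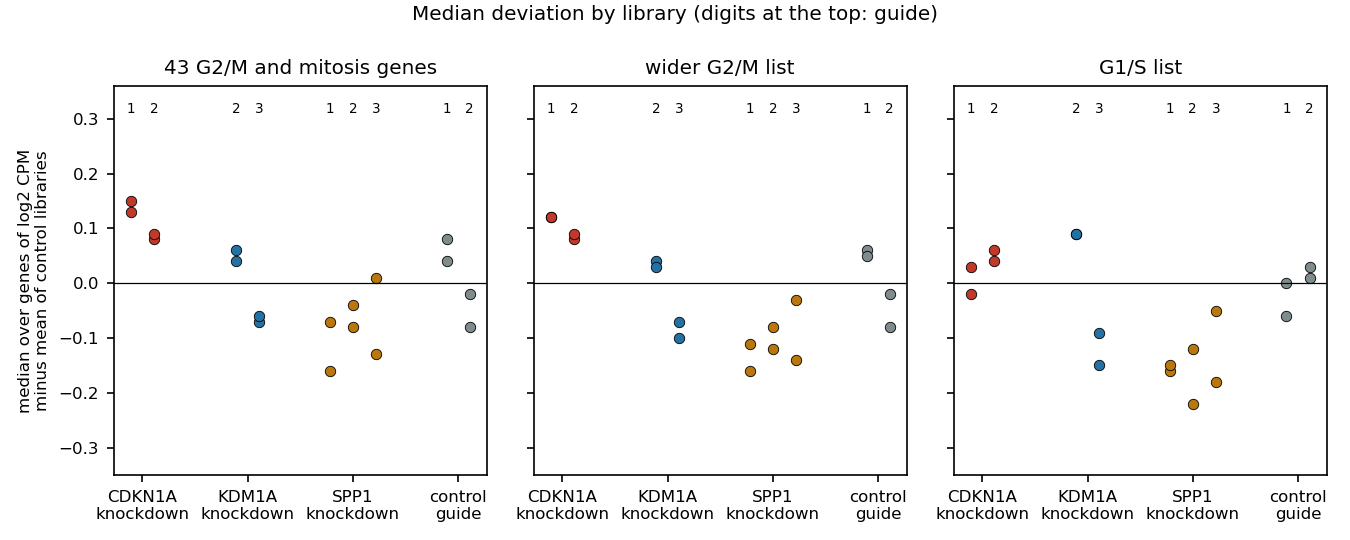
Median over the genes of a list of log2 CPM minus the mean of the 4 control libraries, 1 point per library, for the 43 genes, the wider G2/M list and the G1/S list. Digits at the top are guide numbers. For the 43 genes the CDKN1A libraries lie at 0.08 to 0.15, KDM1A guide 2 and guide 3 on opposite sides of 0, the SPP1 libraries at −0.16 to 0.01 and the control libraries at −0.08 to 0.08.

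The control guides differed as well. Control guide 2 against control guide 1 had a median of −0.11 over the 43 genes, with 34 negative, and 1 call, UBE2C, at 66.9 and 70.9 CPM with guide 2, against 92.1 and 82.1 CPM with guide 1 (−0.34 ± 0.08, adjusted p = 0.0424). In this comparison 0.784% of all genes were lower and 0.554% higher. The call was lost when any 1 of the 4 control libraries was left out. A knockdown median of about 0.1 was thus of the size of the difference between the control guides. The summed share of counts in the 43 genes was 0.650 to 0.682% in CDKN1A libraries, 0.579 to 0.637% in KDM1A libraries, 0.549 to 0.599% in SPP1 libraries and 0.585 to 0.631% in control libraries.

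The comparison with the most calls set 2 knockdowns against each other. Its contrast leaves out the control libraries, which still enter the filter, the scaling and the estimate of spread. CDKN1A knockdown against SPP1 knockdown had 23 of 43 members higher and 0 lower, where 6.37% of all genes were higher and 5.66% lower. The median was 0.21, with 42 positive and 30 at an unadjusted p under 0.05, and DESeq2 called 25 up and 0 down. All 4 members of the anaphase-promoting complex and separase group were higher (0.24 to 0.30), as were TOP2A, MKI67 and FOXM1. So were 5 of 10 kinetochore and checkpoint genes, 4 of 7 spindle genes, 4 of 9 midzone and cytokinesis genes and 3 of 10 kinases, phosphatases and cyclins.

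PLK4 stood 0.49 ± 0.06 higher on the log2 scale (adjusted p = 6.29e-05), at 56.6 to 59.5 CPM in CDKN1A knockdown, against 38.1 to 44.6 CPM in SPP1 knockdown. FOXM1 had 186 to 195 CPM in CDKN1A knockdown, against 146 to 165 CPM with a median of 151 in SPP1 knockdown (0.31 ± 0.05, adjusted p = 0.000316). TTK had 57.5, 61.1, 55.5 and 57.6 CPM in CDKN1A knockdown, against 43.0 to 47.9 CPM with a median of 44.5 in SPP1 knockdown (0.36 ± 0.06, adjusted p = 0.000485). None of these groups overlapped. CENPF (0.33 ± 0.05, adjusted p = 0.000506), ECT2 (0.25 ± 0.04, adjusted p = 0.000605) and CENPE (0.37 ± 0.08, adjusted p = 0.00350) followed. In all, 20 members had every CDKN1A library above every SPP1 library, where 6.02% of all genes did, and no member had every library below, where 5.47% did. The Aurora kinases and CDK1 were not called: AURKA had −0.02 ± 0.06, AURKB 0.07 ± 0.10 and CDK1 0.16 ± 0.08.

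**Figure D4:**
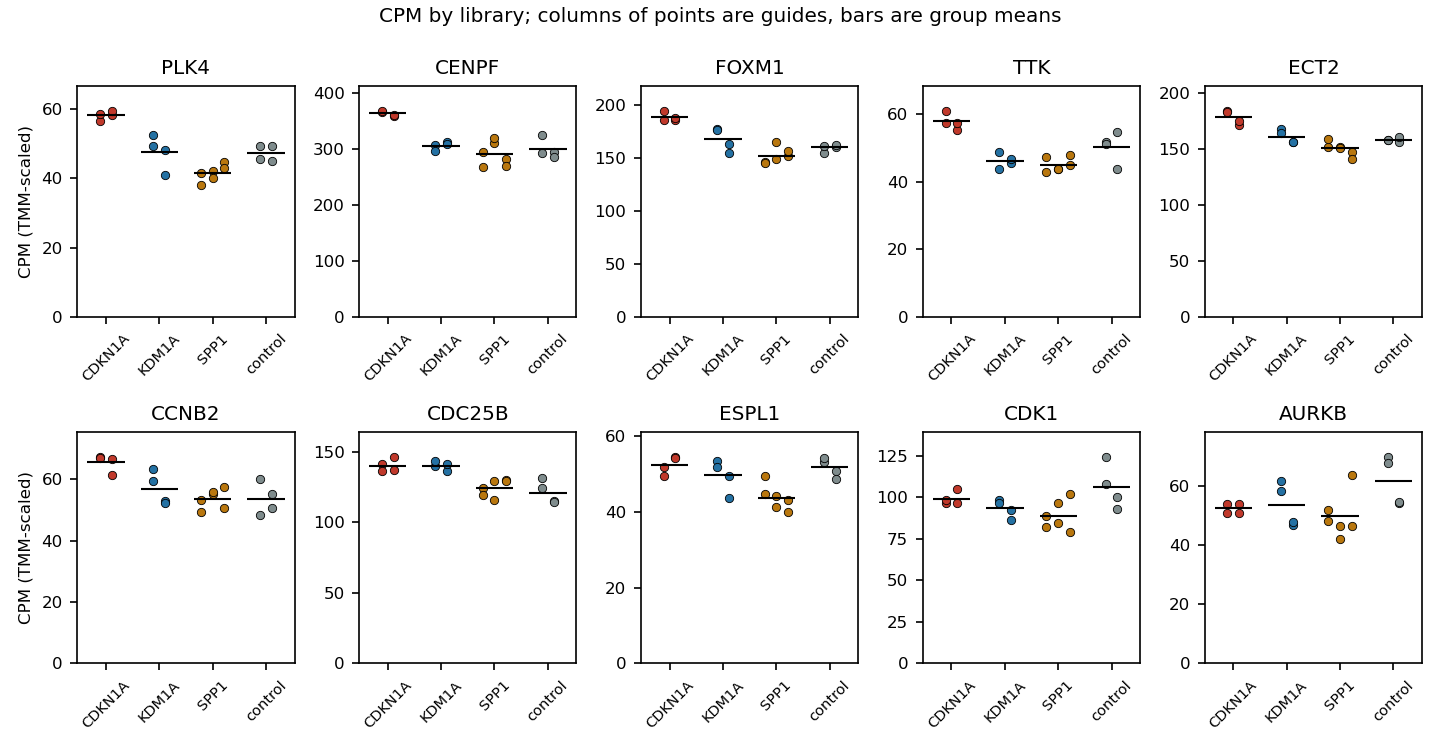
CPM of 10 genes in each library (points; a column of points is a guide) with the group mean (bar), on axes from 0. PLK4, CENPF, FOXM1, TTK and ECT2 are highest in all 4 CDKN1A libraries, whereas AURKB is at 50.9 to 54.0 CPM there and at 54.4 to 69.7 CPM in control.

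The 23 calls became 17 to 25 when 1 library of these groups was left out, and 16 of the 23 genes were called in all 10 such fits. Without SPP1 guide 3 replicate 2 the count was 25, without the library labelled SPP1 guide 3 replicate 1 it was 18, and without guide 2 replicate 2 it was 21. It was 8 without CDKN1A guide 1, 10 without CDKN1A guide 2, and 2 with both libraries of a guide summed. All 23 kept a positive sign in the 22 alternatives. BUB1B, ESPL1 and NUSAP1, a microtubule-binding protein, had adjusted p of up to 0.867, 0.556 and 0.563 over these. A same-strand gene, AC087721.2, shares 62.2% of the exonic bases of NUSAP1.

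CDKN1A knockdown against KDM1A knockdown had 9 members higher and 0 lower (6.89% of all genes were higher and 8.06% lower), with a median of 0.12 and 42 positive, and DESeq2 called 10 up and 0 down. Of 9 fibroblast markers, 6 were lower and 0 higher in this comparison, with a median of −0.93, and their part was not tested. TTK had 55.5 to 61.1 CPM in CDKN1A knockdown, against 48.9, 43.7, 45.7 and 46.7 CPM in KDM1A knockdown (0.32 ± 0.06, adjusted p = 0.00128). PLK4 (0.29 ± 0.06, adjusted p = 0.00479), CENPF (0.25 ± 0.06, adjusted p = 0.00528) and ASPM (0.25 ± 0.06, adjusted p = 0.0117) were, with TTK, called in all 8 fits that left out 1 library. BUB1B, CENPE, ECT2, TOP2A and FOXM1 were the others. Every CDKN1A library was above every KDM1A library for 14 members (11.9% of all genes) and below for 0 (12.3%). The count was 4 without CDKN1A guide 1 replicate 1, guide 1 replicate 2 or guide 2 replicate 2, or without KDM1A guide 3 replicate 1 or replicate 2. KDM1A knockdown against SPP1 knockdown had 2 members higher, CDC25B (0.17 ± 0.05, adjusted p = 0.0212) and PLK4 (0.20 ± 0.06, adjusted p = 0.0371), and 0 lower, where 6.90% of all genes were higher and 5.0% lower. CDC25B and KIF11 had every KDM1A library above every SPP1 library (5.45% of all genes did), and no member had every one below (4.04%). DESeq2 called 6 up and 0 down. That count was 0 without either library of KDM1A guide 2, 7 without KDM1A guide 3 replicate 2 and 4 without SPP1 guide 3 replicate 2.

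**Figure D5:**
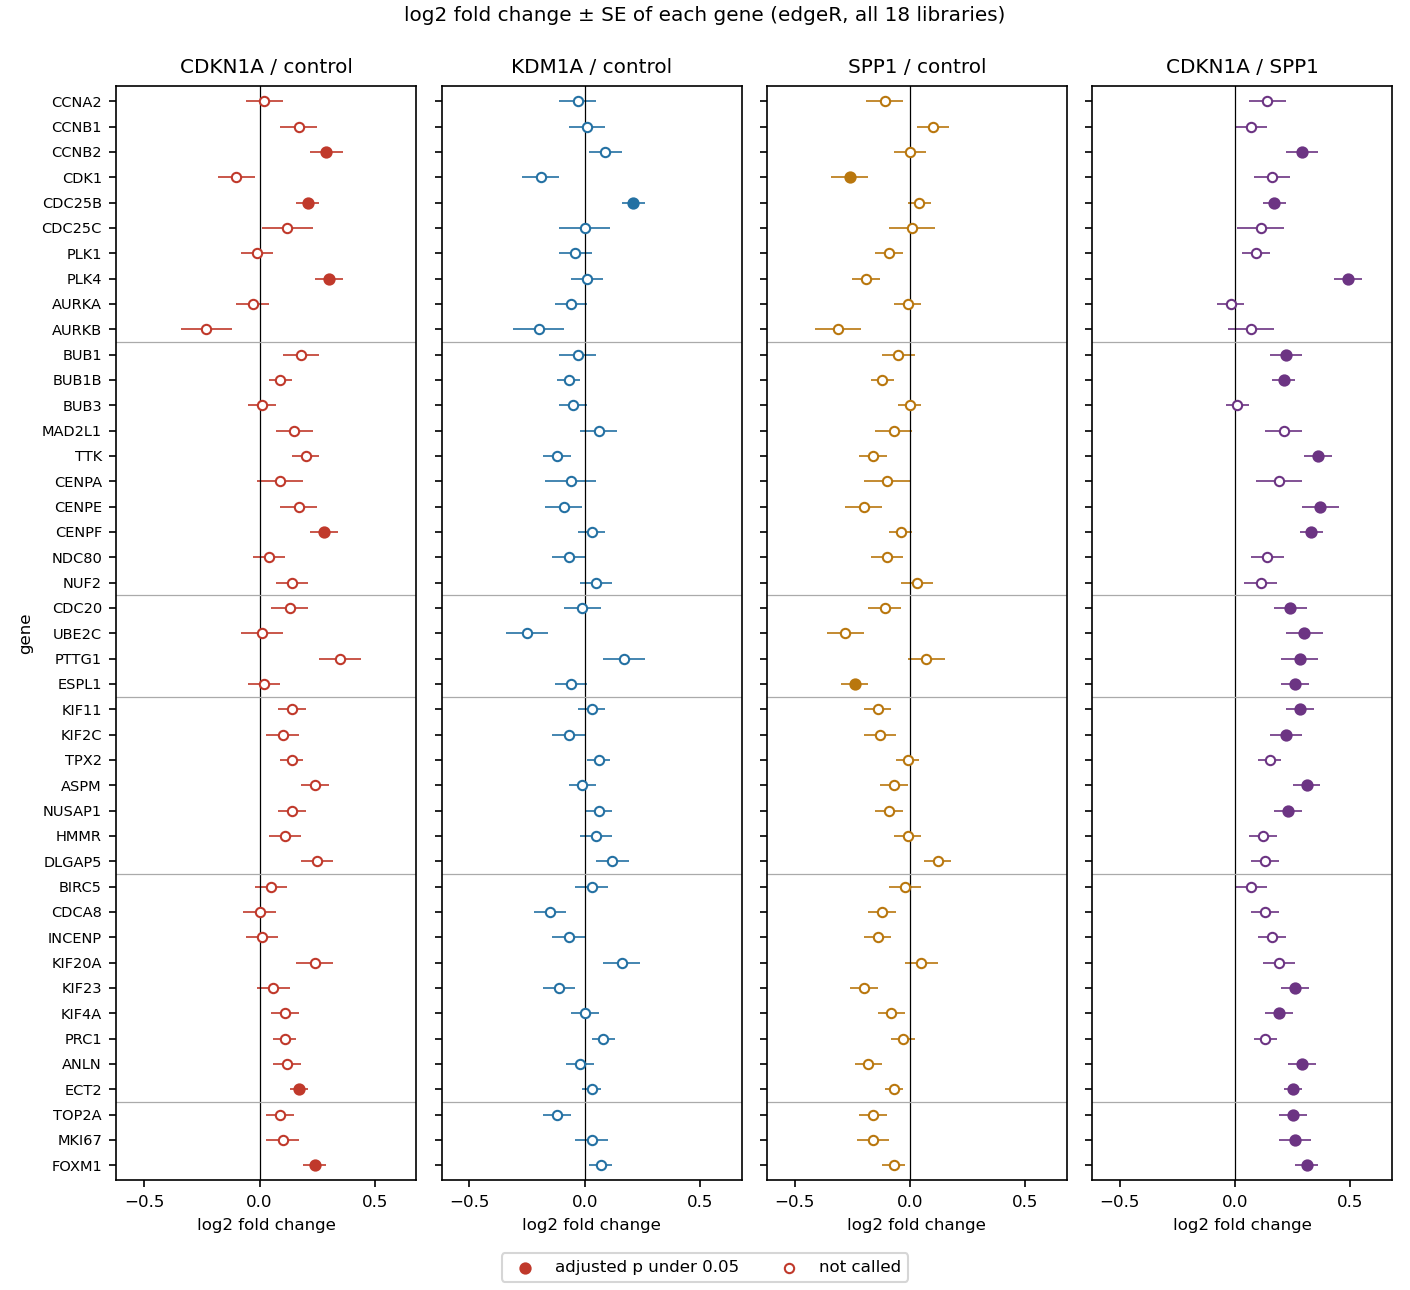
log2 fold change ± SE of each of the 43 genes in 4 comparisons. Filled points have an adjusted p under 0.05 (edgeR) and open points do not. Against control, 6 genes are filled in CDKN1A knockdown, 1 in KDM1A knockdown and 2 in SPP1 knockdown, and 23 are filled for CDKN1A against SPP1 knockdown.

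The wider G2/M list of 59 other genes had 6 higher and 0 lower in CDKN1A knockdown (1.09% of all genes rose), with a median of 0.11 (22 at an unadjusted p under 0.05; DESeq2 called 12 up and 0 down). They were the condensin subunits SMC2 (0.29 ± 0.05, adjusted p = 0.0105) and SMC4 (0.23 ± 0.05, adjusted p = 0.0220), the CDK1-inhibiting kinase WEE1 (0.24 ± 0.05, adjusted p = 0.0165), the kinetochore protein ZWILCH, GAS2L3 and KIF14. The count was 1 to 6 with 1 library of these groups left out, lowest without control guide 1 replicate 1, and 0 with summed guides. In KDM1A knockdown 0 of 59 were called by edgeR (6 at an unadjusted p under 0.05; DESeq2 called 1 up). In SPP1 knockdown 9 were lower and 0 higher (3.06% of all genes fell; 22 at an unadjusted p under 0.05; DESeq2 called 10 down). Among them were the CENP-A chaperone HJURP (−0.28 ± 0.06, adjusted p = 0.0111), MYBL2, which encodes B-MYB (−0.42 ± 0.10, adjusted p = 0.0197), the kinetochore scaffold KNL1 and the kinase PKMYT1. That count was 0 to 13, with 0 without control guide 1 replicate 2, and 0 with summed guides. CDKN1A against SPP1 knockdown had 31 of these 59 higher and 0 lower (6.37% of all genes were higher; DESeq2 called 35 up and 0 down), which became 25 to 41 with 1 library left out and 5 with summed guides.

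Of 13 genes of the DREAM and MuvB complex, the RB family and their upstream regulators, RBL2 was higher in CDKN1A knockdown (0.33 ± 0.07, adjusted p = 0.0267). It encodes p130. The other call there was CDKN1A itself, which was lower. It is the target of the guides, so its fall is not a result about the list. In CDKN1A knockdown 1.09% of all genes rose and 0.917% fell. In KDM1A knockdown the transcription factor E2F5 was higher (0.46 ± 0.12, adjusted p = 0.0241), 7.69% of the list, near the 5.33% of all genes that rose. In SPP1 knockdown RBL1, which encodes p107, was lower (−0.20 ± 0.05, adjusted p = 0.0178), 7.69% of the list, where 3.06% of all genes fell. With 1 library left out, the list's count, in which CDKN1A itself is included, was 1 to 2 in CDKN1A, 0 to 1 in KDM1A and 0 to 2 in SPP1 knockdown. For CDKN1A it was 1 when any single library of the comparison other than control guide 1 replicate 2 was left out. It was 0 for KDM1A without control guide 1 replicate 2, KDM1A guide 2 replicate 2 or guide 3 replicate 1, and 0 for SPP1 without control guide 1 replicate 2 or control guide 2 replicate 2. With summed guides it was 0 in each. Of 35 G1/S genes edgeR called 0 in CDKN1A knockdown and 0 in KDM1A knockdown (2 and 6 at an unadjusted p under 0.05), and DESeq2 called 1 up in each. In SPP1 knockdown 6 were lower and 0 higher (3.06% of all genes fell; DESeq2 called 7 down), with a median of −0.15 over the 35. They were the origin factors ORC6, CDC45, CDC6 and CDT1, the phosphatase CDC25A and the thymidylate synthase TYMS, at −0.31 to −0.20 on the log2 scale. That count was 0 without control guide 1 replicate 2 or control guide 2 replicate 1 and 1 without control guide 2 replicate 2, at most 7 with 1 library left out, and 0 with summed guides. CDKN1A against SPP1 knockdown had 9 of the 35 higher and 0 lower, where 6.37% of all genes were higher and 5.66% lower. The 9 became 4 to 11 with 1 library left out, lowest without CDKN1A guide 2 replicate 1, and 0 with summed guides.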

How the data were processed

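Poly(A) RNA of 18 hiF-T libraries was sequenced. Per the submitters' processing notes the authors used kallisto and build GRCh38. The sources used here give no version or index. The authors deposited kallisto's estimated counts, TPM and effective lengths per Ensembl transcript. GENCODE 29 matched 169797 of 188753 transcripts (90.0%) to 35579 genes, and the rest, 2.49 to 2.62% of counts, was left out. These counts were added up by gene and rounded to whole numbers. Genes passing filterByExpr by group (count minimum 10) were fitted to all 18 libraries with edgeR 4.0.16 in R 4.3.3 (TMM, quasi-likelihood F test), with 1 coefficient per group, or per guide for guide comparisons. Benjamini-Hochberg adjustment ran over all 13527 genes, with an adjusted p under 0.05 as the threshold for a call. SE is the log2 fold change divided by the root of F. Authors' TPM served for levels, and effective lengths for 1 alternative. DESeq2 1.42.0 was another.

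The members and lists were chosen with earlier results of these data known. Named are members called in a knockdown against control, the largest change and highest TPM per role group, up to 6 calls per guide comparison and up to 4 calls per other list. Promoter sequences are from RefSeq (GRCh38.p14).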

Additional observations from a re-analysis of the deposited data

Results flagged for a closer look

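In 3 of 116 sets of values (29 named genes in 4 groups) 1 library lay far from the rest of its group by Dixon's criterion, where chance gives about 1 in 20. CCNB2 was at 61.4 CPM in CDKN1A guide 2 replicate 2, and at 66.4 to 67.1 CPM in the other 3 CDKN1A libraries. DLGAP5 was at 94.0 CPM in control guide 2 replicate 2, and at 83.8 to 85.3 CPM in the other 3 control libraries. UBE2C was at 77.8 CPM in SPP1 guide 3 replicate 2, and at 58.6 to 65.6 CPM in the other 5 SPP1 libraries.

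The effects of the KDM1A guides differed for 5 genes by the test of guide 3 against guide 2 with each guide as its own coefficient (edgeR). The log2 differences were −0.40 for CCNA2, −0.24 for KIF23, −0.23 for PRC1, −0.20 for TPX2 and −0.20 for KIF4A. All 5 were lower with guide 3, in both of its libraries. Guide 3 left 43.4% and guide 2 left 62.6% of the control level of KDM1A mRNA, and its part in these differences was not tested.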

How the results depend on the processing

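Fold changes of the members were small and the counts of calls moved with the processing. Signs were compared only for members called in a group comparison and for the largest change per role group in a knockdown against control. None of those turned. For CDKN1A against control (6 calls) the count was 10 with DESeq2, 3 with the replicate block, 0 with a length offset or summed guides, 1 without control guide 1, 1 without control guide 2, 0 without CDKN1A guide 1 and 0 without guide 2. For KDM1A against control (1) it was 0 with a length offset or summed guides, 3 without control guide 2, 0 without KDM1A guide 2 and 2 without guide 3. For SPP1 against control (2) it was 5 with DESeq2, 1 with the replicate block or a length offset, 0 in the 2 groups alone, with summed guides, without control guide 1 or without SPP1 guide 2, and 7 without control guide 2. For CDKN1A against SPP1 (23), settings chosen after seeing the data gave 2 with summed guides, 8 without CDKN1A guide 1 and 10 without guide 2. For KDM1A against SPP1 (2) it was 4 with RLE size factors, 0 with no low-count filter and 6 with DESeq2. With no filter the guide fits gave 3 for KDM1A guide 2, 4 for SPP1 guide 1, 4 for control guide 2 against 1, and 2 for SPP1 guide 1 against guides 2 and 3. The settings for the other gene lists were also chosen after seeing the data. The causes were not tested.

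Leaving out 1 library gave 0 to 9 for CDKN1A against control, 1 to 2 for KDM1A against control, 0 to 5 for SPP1 against control, 4 to 11 for CDKN1A against KDM1A, 17 to 25 for CDKN1A against SPP1 and 0 to 7 for KDM1A against SPP1. The 9 and the 11 came without SPP1 guide 3 replicate 2, a library of neither group, left out after seeing the data. By guide it gave 0 to 12 and 0 to 6 for CDKN1A guides 1 and 2, 0 to 6 and 0 to 7 for KDM1A guides 2 and 3, and 0 to 3, 1 to 6 and 3 to 14 for SPP1 guides 1, 2 and 3. Between guides it gave 0 to 0 for control, 0 to 0 for CDKN1A, 0 to 1 for KDM1A and 0 to 8 for SPP1. Over all genes kept, the replicate differences of 36 pairs of guides correlated at −0.12 to 0.07. No shared replicate effect was seen across genes, but this cannot exclude 1 that is limited to some genes. With the replicate block, control guide 2 against 1 had 0 calls and SPP1 guide 1 against guides 2 and 3 had 1. The CHR and CCAAT counts were 28 and 29 of 36 genes in the last 150 bases before and 50 after the start. The coefficient of variation was 9.32% in the fit by group, which holds the spread between guides and between libraries, and 6.92% in the fit by guide.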
